A study of Mus musculus with 9 samples.

Results

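The enzymes described here are the members of 6 gene families that modify foreign small molecules, read in olfactory sensory neurons sorted by the odorant receptor they express. They are cytochrome P450 family 2 (Cyp2), the UDP-glucuronosyltransferases (Ugt), the cytosolic glutathione S-transferases (Gst), the sulfotransferases (Sult), the flavin-containing monooxygenases (Fmo) and the carboxylesterases (Ces). They were taken by gene symbol alone from the whole expression table, with no use of measured values, and numbered 169 of 55291 genes, 31 of them with a pseudogene symbol. There were 72 Cyp2, 21 Ugt, 22 Gst, 27 Sult, 7 Fmo and 20 Ces members.

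Mature neurons were sorted from dissociated main olfactory epithelium of 3 kinds of mice, each with a fluorescent reporter placed behind 1 receptor gene through an internal ribosome entry site: Olfr1507-IRES-GFP, Olfr73-IRES-GFP and Olfr160-IRES-mCherry, with 3 libraries each. The gate took reporter-bright cells with low DAPI stain, so that the Olfr160 neurons differed from both others in reporter colour as well as in receptor. The series' own description speaks of duplicate sequencing, while 3 libraries per group are held here and used as n = 3, and the 2 statements could not be reconciled. Age, sex and strain are not given, nor whether replicate libraries derive from different mice, so that p-values measure the spread between these libraries, which may be technical. Libraries held 17212807 to 36230606 expected read counts. The receptor of the label was high in its own group: Olfr1507 had 2685 to 3212 normalised CPM (read counts relative to library size, scaled by the TMM method) in Olfr1507 neurons against 12.3 to 57.9 in Olfr73 and 60.9 to 85.7 in Olfr160 neurons. Olfr73 had 747 to 948 CPM in Olfr73 neurons against 0.606 to 1.75 CPM in the other 6 libraries. Olfr160 had 151, 384 and 735 CPM in the 3 Olfr160 libraries against 0.280 to 5.57 CPM elsewhere, and so differed among its own libraries by more than the other 2 receptors did.

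Metabolism of foreign compounds runs in steps. Cyp2 and Fmo enzymes oxidise a lipophilic molecule and carboxylesterases cleave its esters, after which Ugt, Gst and Sult enzymes attach glucuronic acid, glutathione or sulfate and make it easier to export. In the nose these enzymes are known above all from sustentacular cells, which support and surround the neurons, and from the Bowman glands, where they protect the tissue and clear odorants. Cyp2g1 and Ugt2a1 are best known from olfactory mucosa.

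Several family members lie in gene clusters, and the results turned on genes of the same cluster with unlike levels. The bases before the transcript start are shown for 7 of them. Members highest in Olfr160 neurons (Cyp2f2, Cyp2j6, Ugt2a1, Sult1e1) are paired with genes of the same cluster that were not (Cyp2s1, Cyp2j12, Sult1d1). Paired genes are not always adjacent. Each sequence is the 250 bases before the start annotated by RefSeq on GRCm38.p6, read 5′ to 3′ on the gene's strand, and RefSeq starts can differ from those of the GENCODE genes used for positions.
Cyp2f2 (chr7:27119705-27119954, plus strand): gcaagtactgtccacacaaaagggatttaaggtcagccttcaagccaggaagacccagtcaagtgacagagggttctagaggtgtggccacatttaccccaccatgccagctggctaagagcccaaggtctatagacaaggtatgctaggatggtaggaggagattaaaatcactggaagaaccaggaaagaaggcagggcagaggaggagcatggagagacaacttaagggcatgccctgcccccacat
Cyp2s1 (chr7:25816526-25816775, minus strand): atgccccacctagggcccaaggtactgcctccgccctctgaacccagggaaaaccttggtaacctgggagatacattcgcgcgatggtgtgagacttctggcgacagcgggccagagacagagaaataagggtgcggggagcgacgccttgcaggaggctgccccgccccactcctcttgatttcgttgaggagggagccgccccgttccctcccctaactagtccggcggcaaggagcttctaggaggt
Cyp2j6 (chr4:96553652-96553901, minus strand): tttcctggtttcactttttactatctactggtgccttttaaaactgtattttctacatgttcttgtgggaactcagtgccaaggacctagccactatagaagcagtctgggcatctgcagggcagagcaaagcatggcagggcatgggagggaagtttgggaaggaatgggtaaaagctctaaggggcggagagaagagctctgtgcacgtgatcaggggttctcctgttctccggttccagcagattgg
Cyp2j12 (chr4:96141153-96141402, minus strand): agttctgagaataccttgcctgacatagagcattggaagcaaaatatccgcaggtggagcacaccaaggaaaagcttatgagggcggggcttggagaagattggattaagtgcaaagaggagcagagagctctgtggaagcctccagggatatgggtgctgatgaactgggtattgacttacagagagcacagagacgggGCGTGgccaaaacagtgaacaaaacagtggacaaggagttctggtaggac
Ugt2a1 (chr5:87490872-87491121, minus strand): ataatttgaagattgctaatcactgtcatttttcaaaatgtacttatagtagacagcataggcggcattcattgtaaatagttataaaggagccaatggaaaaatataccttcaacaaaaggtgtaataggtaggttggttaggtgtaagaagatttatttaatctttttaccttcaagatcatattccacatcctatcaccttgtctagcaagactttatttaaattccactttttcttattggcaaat
Sult1e1 (chr5:87591612-87591861, minus strand): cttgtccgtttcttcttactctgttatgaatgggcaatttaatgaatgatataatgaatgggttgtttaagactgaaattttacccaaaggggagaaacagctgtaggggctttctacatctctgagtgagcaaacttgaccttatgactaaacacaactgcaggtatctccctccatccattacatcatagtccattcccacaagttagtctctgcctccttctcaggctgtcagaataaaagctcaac
Sult1d1 (chr5:87569007-87569256, minus strand): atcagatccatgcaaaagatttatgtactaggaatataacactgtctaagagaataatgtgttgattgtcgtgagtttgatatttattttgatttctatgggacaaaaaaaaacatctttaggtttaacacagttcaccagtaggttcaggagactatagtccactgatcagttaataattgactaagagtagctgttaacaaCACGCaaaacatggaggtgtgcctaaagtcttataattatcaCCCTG
Capitals mark matches to 3 motifs searched on both strands from 250 bases before to 50 after the start: CCCNNGGG, the core of sites for the neuronal Ebf factors, GCGTG, the core bound by the dioxin receptor with its partner, and TGACNNNGC, the antioxidant response core. Sult1d1 held the first in a match that starts 5 bases before the start and runs past it, and the second on the opposite strand. Cyp2j12 held the second, and Cyp2j6 held the third at base 15 after the start. The other 4 held none of these letters. Over all 32851 RefSeq promoters of this length, 13.7% held the first motif, 32.4% the second and 12.4% the third. Of the 131 promoters that RefSeq gives for 116 of the members, 5 (3.82%) held the first, 23 (17.6%) the second and 6 (4.58%) the third. Base composition differed: Cyp2s1 had 62.0% G and C with 15 CpG pairs, while Cyp2f2 had 51.6% with 0, Ugt2a1 30.8% with 1, Sult1d1 34.0% with 2 and Sult1e1 40.8% with 1, against a median of 52.4% and 6 pairs over all promoters. A match is a string of letters and says nothing about binding in these cells.

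Most of the families were hardly present. No count was seen in any of the 9 libraries for 72 of the 169 members, 41 of these in Cyp2, where 3 counts would correspond to 0.0990 to 0.167 CPM. A mean of at least 1 CPM in some group was reached by 57 members and one of 5 CPM by 40. Of the 59 members with enough counts to be tested, 14 were Cyp2, 6 Ugt, 17 Gst, 9 Sult, 5 Fmo and 8 Ces. The 169 members took 0.298 ± 0.0446% of all counts in Olfr1507 neurons, 0.657 ± 0.119% in Olfr73 neurons and 2.40 ± 0.667% in Olfr160 neurons (SD, n = 3 each). A single sulfotransferase, Sult1d1, made up 79.9 ± 3.25% of the members' summed CPM in Olfr1507 neurons, 25.1 ± 7.64% in Olfr73 neurons and 7.73 ± 4.38% in Olfr160 neurons.

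**Figure D1:**
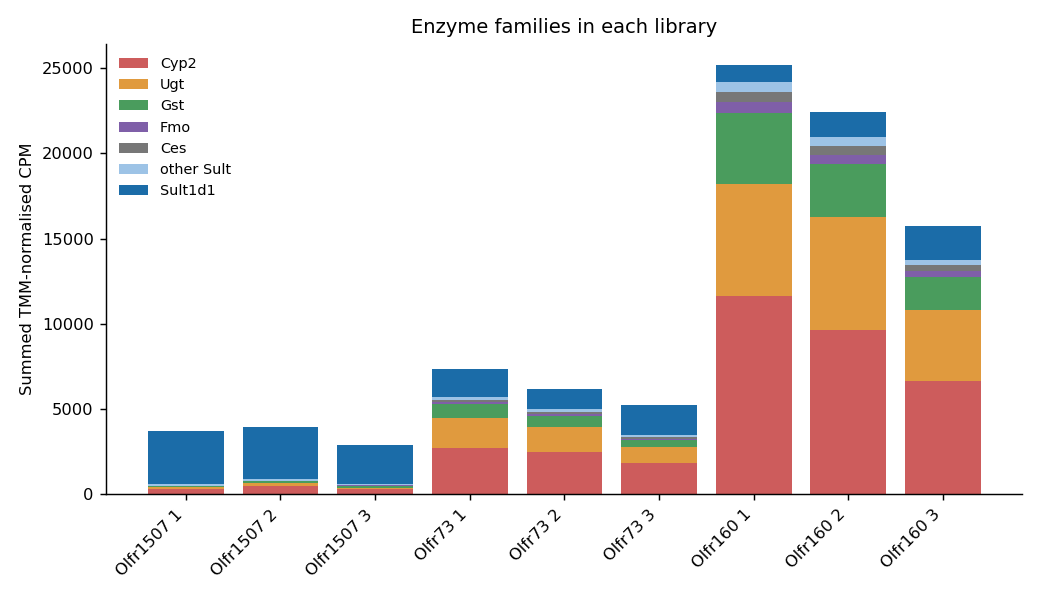
Summed TMM-normalised CPM of the family members in each of the 9 libraries (bars, stacked by family, with Sult1d1 apart from the other sulfotransferases). Sult1d1 fills most of the bar in the 3 Olfr1507 libraries, while Cyp2, Ugt and Gst make most of it in the 3 Olfr160 libraries.

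The family sums differed between the groups to very unlike degrees. Cyp2 members summed to 378 ± 89.3 CPM in Olfr1507, 2334 ± 478 in Olfr73 and 9319 ± 2503 in Olfr160 neurons. Ugt members summed to 102 ± 56.0 CPM in Olfr1507, 1417 ± 389 in Olfr73 and 5777 ± 1407 in Olfr160 neurons, and Gst members to 113 ± 17.2 CPM in Olfr1507, 620 ± 207 in Olfr73 and 3080 ± 1108 in Olfr160 neurons. The 2 smallest sums were Fmo, with 10.9 ± 6.04 CPM in Olfr1507, 89.0 ± 21.4 in Olfr73 and 485 ± 137 in Olfr160 neurons, and Ces, with 10.6 ± 6.15 CPM in Olfr1507, 110 ± 42.9 in Olfr73 and 508 ± 160 in Olfr160 neurons. Sult members had a sum of 2917 ± 466 CPM in Olfr1507, 1691 ± 316 in Olfr73 and 1941 ± 390 in Olfr160 neurons, in an order unlike that of the other 5 families.

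In the test across all genes (edgeR quasi-likelihood, Benjamini-Hochberg adjusted p under 0.05 over 16399 genes), 49 of the 59 tested members were lower and 3 higher in Olfr1507 than in Olfr160 neurons, with a median log2 fold change of -5.63. Of all genes tested, 27.7% were lower and 20.7% higher in that comparison (48.4% either way), with a median of -0.14. Against Olfr73 neurons, 37 members were lower and 2 higher in Olfr1507 neurons (median -3.36), where 19.9% of all genes were lower and 14.5% higher (34.4% either way, median -0.15). In Olfr73 against Olfr160 neurons, 32 members were lower and 2 higher (median -2.21), where 10.5% of all genes were lower and 7.45% higher (17.9% either way, median -0.01). The 3 comparisons share their libraries in pairs. These shares of all genes are the ones to set beside the counts of families and gene lists given below. The 5 members at 0 counts in all 3 Olfr1507 libraries enter the first 2 medians and, set at a floor of 3 counts per library, gave -5.49 and -3.01. With Olfr160 replicate 3 as the only library of its group, edgeR called 0 members either way between Olfr73 and Olfr160, while 26 were lower and 2 higher at an unadjusted p under 0.05.

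The same shift was seen in supporting-cell genes outside the families. A list of 10 sustentacular markers (Sec14l3, Ermn, Krt8, Krt18, Cbr2, Ezr, Epas1, Hes1, Notch2 and Aldh1a7) summed to 205 to 325 CPM in Olfr1507, 1864 to 3373 in Olfr73 and 8977 to 15974 in Olfr160 libraries, with no marker at 0 in any group. All 9 of its tested genes were lower in Olfr1507 than in Olfr160 neurons and in Olfr73 than in Olfr160 neurons, and 8 of the 9 were lower in Olfr1507 than in Olfr73 neurons. The summed level was 49.6 times higher in Olfr160 than in Olfr1507 neurons, 4.74 times higher in Olfr160 than in Olfr73 and 10.5 times higher in Olfr73 than in Olfr1507. Gland markers (12 genes) ranged from 50.3 to 688 CPM in Olfr1507, 547 to 1586 in Olfr73 and 5757 to 35718 in Olfr160 libraries, with Azgp1 at 0 in Olfr1507, and so varied far more within a group. Markers of respiratory epithelium (10 genes, 2 at 0 in each group) summed to 72.5 to 199 CPM in Olfr1507, 1048 to 2315 in Olfr73 and 4676 to 11725 in Olfr160 libraries. Immune markers (10 genes, Csf1r and 1 more at 0 in Olfr1507) summed to 2.70 to 6.53 CPM in Olfr1507, 82.4 to 117 in Olfr73 and 256 to 770.3 in Olfr160 libraries, and basal and progenitor markers (8 genes, 2 at 0 in Olfr1507 and in Olfr73) to 3.13 to 6.04 CPM in Olfr1507, 39.3 to 83.5 in Olfr73 and 235 to 467 in Olfr160 libraries. Markers of microvillar and brush cells (8 genes) summed to 55.2 to 75.3 CPM in Olfr1507, 26.6 to 49.4 in Olfr73 and 101 to 158 in Olfr160 libraries, and those of glia, stroma and vessels (10 genes, Sox10 at 0 in Olfr1507) to 3.89 to 5.61 CPM in Olfr1507, 25.5 to 50.8 in Olfr73 and 63.7 to 177 in Olfr160 libraries. The 16 neuron markers summed to 110910 ± 1676 CPM in Olfr1507, 59100 ± 1740 in Olfr73 and 39794 ± 10963 in Olfr160 neurons, all 16 above 0 in every group. In bulk libraries, fewer cells of a type and less RNA per cell cannot be told apart, and the part of these markers in the enzyme levels was not tested.

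The members were also read against the sustentacular list. Of the 40 members at 5 CPM or more, 27 had both their Olfr1507 and their Olfr73 level, each relative to Olfr160, within 2-fold of that of the marker sum. The share of all genes within these bounds was not taken. Markers of respiratory epithelium, immune cells and basal cells lay in the same order of groups, and members were not read against those lists. Per sustentacular CPM, 19 of the 40 spanned at most 4-fold over all 9 libraries, while per neuron-marker CPM 3 did (Sult1d1, Cyp2j12 and Sult4a1). By levels alone, 34 of the 40 lay highest in all 3 Olfr160 libraries, 1 in the Olfr73 libraries (Cyp2c23) and 2 in the Olfr1507 libraries (Sult1d1 and Cyp2s1), with no group apart for 3. Among the 57 members at 1 CPM or more these numbers were 42, 1, 2 and 12. Over all 15318 genes at 1 CPM or more, 19.6% were highest in the 3 Olfr160, 6.29% in the 3 Olfr73 and 19.5% in the 3 Olfr1507 libraries.

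**Figure D2:**
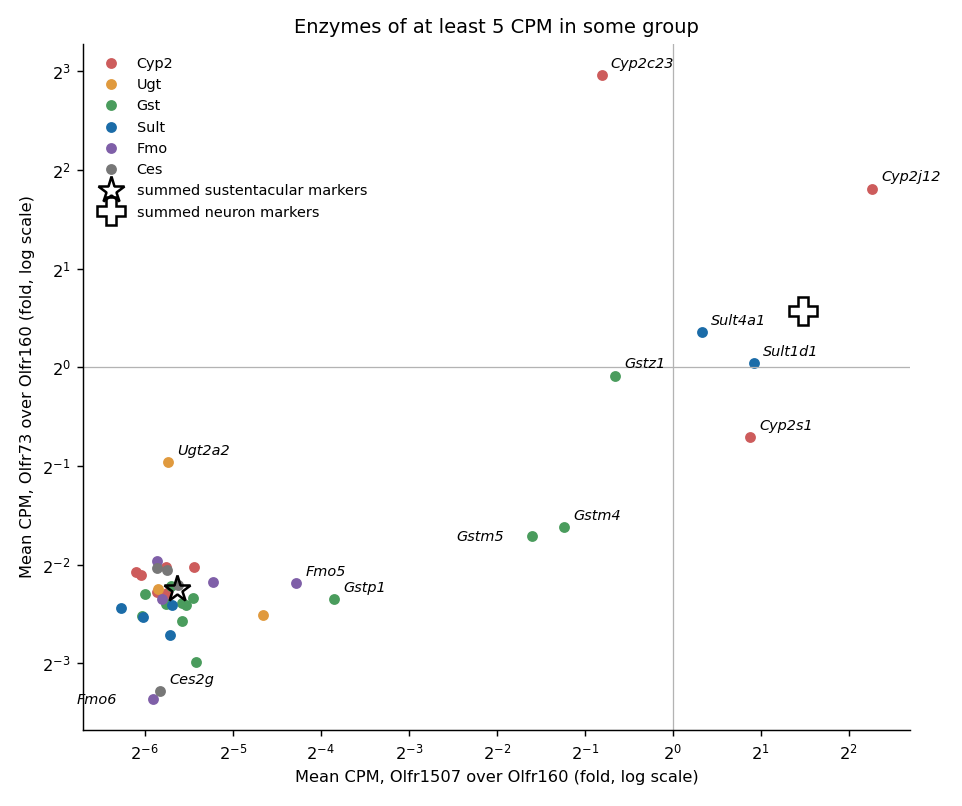
Each point is one of the 40 enzymes at 5 CPM or more in some group, placed by its mean CPM in Olfr1507 over Olfr160 (x axis) and in Olfr73 over Olfr160 (y axis), both folds on log scales, coloured by family. The open star is the sustentacular marker sum and the open cross the neuron marker sum, and most enzymes crowd around the star.

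Cyp2g1, a P450 best known from olfactory mucosa, had 37.7, 99.0 and 53.3 CPM in the 3 Olfr1507 libraries, 1227, 1050 and 817 in the Olfr73 libraries and 5284, 4574 and 3170 in the Olfr160 libraries. The 3 groups did not overlap. On the log2 scale, Olfr1507 neurons stood at -6.10 ± 0.42 (SE) against Olfr160 (adjusted p = 1.52e-05) and at -4.02 ± 0.38 against Olfr73 neurons (adjusted p = 0.000132), and Olfr73 neurons at -2.07 ± 0.35 against Olfr160 (adjusted p = 0.00615). Cyp2f2, which activates naphthalene in airway cells, had 38.3, 106 and 47.8 CPM in Olfr1507, 980, 957 and 608 in Olfr73 and 4560, 3407 and 2411 in Olfr160 libraries. Cyp2a5, which oxidises coumarin and nicotine, had 11.8, 28.0 and 13.0 CPM in Olfr1507, 256, 205 and 171 in Olfr73 and 1186, 1158 and 720 in Olfr160 libraries. Both fell in Olfr1507 neurons as Cyp2g1 did, by 5.75 and 5.85 on the log2 scale against Olfr160 and by 3.72 and 3.57 against Olfr73. Within each library Cyp2f2 stood at 0.744 to 1.07 of Cyp2g1 and Cyp2a5 at 0.196 to 0.312 of it, so that the proportions of the 3 P450 genes varied little beside their levels. Cyp2j6, and Cyp2b10, which phenobarbital induces in mouse liver, lay in the same order of groups, at -5.99 and -5.41 for Olfr1507 against Olfr160, -3.88 and -3.39 against Olfr73, and -2.11 and -2.02 for Olfr73 against Olfr160.

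Fmo2, a monooxygenase of nitrogen and sulfur compounds, had 3.02, 6.47 and 1.56 CPM in Olfr1507, 56.2, 36.8 and 28.5 in Olfr73 and 248, 228 and 144 in Olfr160 libraries. All 5 tested Fmo members were lower in Olfr1507 than in Olfr160 and than in Olfr73 neurons, and 4 of the 5 were lower in Olfr73 than in Olfr160. Fmo6 differed most between these 2 groups, with 10.6, 17.7 and 3.26 CPM in Olfr73 and 120, 126 and 78.7 in Olfr160 libraries (log2 fold change -3.36 ± 0.66, adjusted p = 0.0107). Fmo1 and Fmo5 lay at 77.2 to 160 and 24.5 to 50.4 CPM in Olfr160 libraries, against 1.94 to 5.71 and 1.52 to 2.81 CPM in Olfr1507 libraries. Ces1d, a lipid and drug ester hydrolase, had 6.04, 13.5 and 5.25 CPM in Olfr1507, 112, 99.2 and 52.7 in Olfr73 and 513, 440 and 264 in Olfr160 libraries. All 8 tested carboxylesterases were lower in Olfr1507 than in Olfr160 neurons, 4 of 8 against Olfr73, and 3 of 8 were lower in Olfr73 than in Olfr160. Ces1f, related to Ces1d, had 0.223 to 0.540 CPM in Olfr1507, 2.47 to 7.4 in Olfr73 and 14.0 to 28.0 in Olfr160 libraries. Ces2g, with 0.572, 1.5 and 2.10 CPM in Olfr73 and 15.4, 15.9 and 9.20 in Olfr160 libraries, lost that last call without any of 4 libraries (Olfr73 replicate 1 or 2, Olfr160 replicate 1 or 2; adjusted p = 0.0651, 0.0683, 0.0965 and 0.111).

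Among the conjugating enzymes, Ugt2a1, the olfactory glucuronosyltransferase, had 62.5, 143 and 59.2 CPM in Olfr1507, 1389, 1118 and 700 in Olfr73 and 5879, 5783 and 3585 in Olfr160 libraries (log2 fold change -5.85 ± 0.46 for Olfr1507 over Olfr160, adjusted p = 2.66e-05). Ugt2a2, which shares the 3′ part of its locus with Ugt2a1, did not keep its ratio to it. Its level was 5.24, 22.9 and 9.44 CPM in Olfr1507, 351, 392 and 283 in Olfr73 and 679, 774 and 550 in Olfr160 libraries. The Ugt2a2 to Ugt2a1 ratio was 0.0838, 0.161 and 0.159 in Olfr1507, 0.252, 0.351 and 0.405 in Olfr73 and 0.116, 0.134 and 0.153 in Olfr160 libraries. The Olfr73 libraries lay above the other 6. All 9 counts of both genes were not whole numbers, since reads of the shared part were divided between them by estimation, so the split is uncertain. Summed over both genes, Olfr1507 neurons stood at -5.83 against Olfr160 and at -3.81 against Olfr73 on the log2 scale, and Olfr73 neurons at -2.03 against Olfr160.

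Gstm1, the glutathione S-transferase with the highest mean TPM (transcript abundance, which allows for gene length) in each of the 3 groups, had 28.1, 53.3 and 46.1 CPM in Olfr1507, 592, 443 and 280 in Olfr73 and 3136, 2321 and 1461 in Olfr160 libraries (log2 fold change -5.76 ± 0.43 for Olfr1507 over Olfr160, adjusted p = 1.96e-05). Per 1000 CPM of sustentacular markers it stood at 137 to 192 in Olfr1507, 150 to 175 in Olfr73 and 163 to 196 in Olfr160 libraries. Gstm2 and Gstt3 moved with it, at -6.01 ± 0.44 and -5.96 ± 0.44. Of the 17 tested Gst members, 15 were lower in Olfr1507 than in Olfr160 neurons, 12 lower against Olfr73 and 11 lower in Olfr73 than in Olfr160. Gstm7, at 2.42, 2.29 and 0.186 CPM in Olfr73 and 12.4, 10.2 and 6.63 in Olfr160 libraries, was near the threshold there (adjusted p = 0.0399), and its call was lost without any of 7 libraries (adjusted p = 0.0501 to 0.118).

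The sulfotransferases held members of both kinds. Sult1c1, known from mouse olfactory epithelium, had 2.64, 8.82 and 3.46 CPM in Olfr1507, 57.9, 44.5 and 42.4 in Olfr73 and 316, 275 and 180 in Olfr160 libraries. Sult1e1, the estrogen sulfotransferase, had 0.864, 0.462 and 0.837 CPM in Olfr1507, 9.07, 3.70 and 4.43 in Olfr73 and 52.1, 39.3 and 21.9 in Olfr160 libraries. Both kept the order of the supporting-cell markers, as did Sult6b1 at 0.0540 to 1.34 CPM in Olfr1507, 9.79 to 12.4 in Olfr73 and 33.0 to 78.6 in Olfr160 libraries. Sult1b1, which sulfates thyroid hormone, had 0 to 0.528 CPM in Olfr1507, 2.05 to 3.57 in Olfr73 and 10.1 to 25.4 in Olfr160 libraries, and its call in Olfr73 over Olfr160 (adjusted p = 0.0297) was lost without any of 5 libraries of those groups (0.0501 to 0.120), all but Olfr160 replicate 3. Sult1d1, which in mice sulfates dopamine and other catechols, had 3112, 3065 and 2288 CPM in Olfr1507, 1651, 1175 and 1771 in Olfr73 and 997, 1502 and 1972 in Olfr160 libraries. It was the member with the highest mean TPM in Olfr1507 neurons, 2058 ± 363, and in Olfr73 neurons, 1242 ± 255, and ranked behind Cyp2g1, Gstm1, Cyp2f2 and Ugt2a1 in Olfr160 neurons, at 1248 ± 419 TPM.

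Sult1d1 was higher in Olfr1507 than in Olfr160 neurons (log2 fold change 0.92 ± 0.26, adjusted p = 0.0153) and than in Olfr73 neurons (0.88 ± 0.26, adjusted p = 0.0261), while between Olfr73 and Olfr160 it was 0.04 ± 0.25 (adjusted p = 0.932), but with the libraries scaled to the neuron marker list both differences turned to -0.54 and -0.03. Per 1000 CPM of neuron markers it stood at 20.8 to 28.3 in Olfr1507, 19.3 to 29.9 in Olfr73 and 34.2 to 38.6 in Olfr160 libraries, a 2.00-fold span over all 9. Per 1000 CPM of sustentacular markers it spanned 243-fold. The call against Olfr160 was lost without Olfr1507 replicate 1 (adjusted p = 0.0511) and with library size alone (0.0966), and the call against Olfr73 without Olfr73 replicate 1 or 2 or Olfr1507 replicate 1 or 2 (adjusted p = 0.0504 to 0.0836), which left 1 member higher in that comparison in place of 2.

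**Figure D3:**
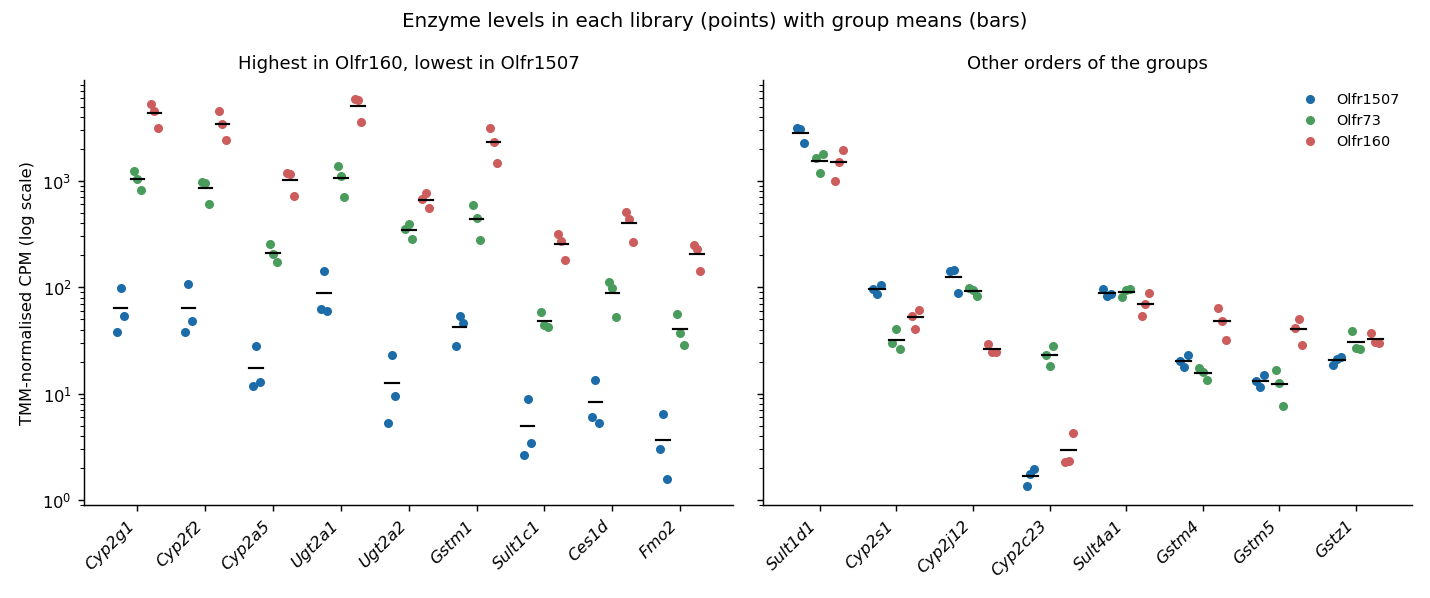
TMM-normalised CPM (log scale) of 17 enzymes in each library, as points coloured by group with a bar at each group's mean; the left panel has enzymes highest in Olfr160 and lowest in Olfr1507 neurons, the right panel other orders. On the left the 3 groups form separate steps, as with Cyp2g1 at 37.7 to 99.0, 817 to 1227 and 3170 to 5284 CPM, while on the right Sult1d1 stays between 997 and 3112 CPM in all 9 libraries.

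Cyp2s1, a P450 of surface epithelia known for its response to the dioxin receptor, had 96.6, 86.3 and 106 CPM in Olfr1507, 29.6, 40.2 and 26.1 in Olfr73 and 54.2, 40.7 and 61.7 in Olfr160 libraries. The Olfr1507 libraries lay above all others. The log2 fold change was 1.59 ± 0.20 for Olfr1507 over Olfr73 (adjusted p = 0.000557), and 0.88 ± 0.20 for Olfr1507 over Olfr160 (adjusted p = 0.00559), a difference that was not called with library size alone (adjusted p = 0.0814) and turned to -0.66 under neuron-marker scaling. Olfr73 over Olfr160 gave -0.71 ± 0.20 (adjusted p = 0.0380), which was lost without any of 7 libraries (0.0525 to 0.10), all but Olfr73 replicate 2 and Olfr160 replicate 2.

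Cyp2j12, a member of the Cyp2j cluster on chromosome 4, had 143, 145 and 88.9 CPM in Olfr1507, 97.4, 94.5 and 82.9 in Olfr73 and 29.1, 24.8 and 24.4 in Olfr160 libraries. The Olfr160 libraries were apart from the other 6, in the opposite direction to the supporting-cell markers. It was higher in Olfr1507 than in Olfr160 (2.27 ± 0.19, adjusted p = 3.47e-05) and in Olfr73 than in Olfr160 (1.81 ± 0.19, adjusted p = 0.00179). Between Olfr1507 and Olfr73, whose values overlapped, it was 0.45 ± 0.18 (adjusted p = 0.0797), and it passed the threshold without Olfr1507 replicate 3 (0.66, adjusted p = 0.00981). Per 1000 CPM of neuron markers Cyp2j12 stood at 0.809 to 1.3 in Olfr1507, 1.4 to 1.70 in Olfr73 and 0.477 to 0.997 in Olfr160 libraries.

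Cyp2c23, a P450 known in mouse kidney for making epoxides of arachidonic acid and formerly named Cyp2c44, had 1.35, 1.75 and 1.95 CPM in Olfr1507, 22.9, 18.2 and 27.7 in Olfr73 and 2.26, 2.34 and 4.22 in Olfr160 libraries. It alone among the 57 members was highest in all 3 Olfr73 libraries. The log2 fold change was -3.76 ± 0.34 for Olfr1507 over Olfr73 (adjusted p = 0.000110) and 2.96 ± 0.32 for Olfr73 over Olfr160 (adjusted p = 0.00217). In Olfr1507 over Olfr160 it was -0.80 (adjusted p = 0.0612), and it passed the threshold with other size factors (adjusted p = 0.0380) and with DESeq2 (0.0270). Its ratio to Cyp2f2 was 0.0165 to 0.0409 in Olfr1507, 0.0190 to 0.0456 in Olfr73 and 0.000496 to 0.00175 in Olfr160 libraries, overlapping between Olfr1507 and Olfr73 only.

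**Figure D4:**
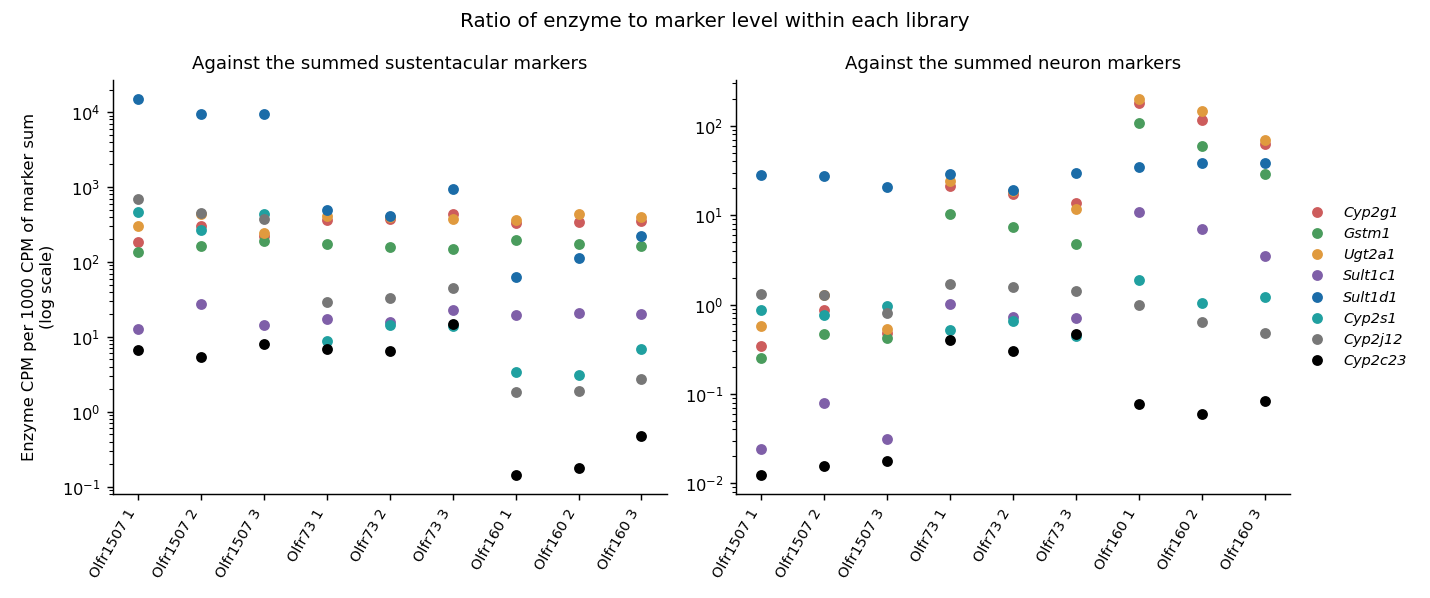
Level of 8 enzymes per 1000 CPM of summed sustentacular markers (left) and of summed neuron markers (right) in each library, as points on log axes. Cyp2g1, Gstm1, Ugt2a1 and Sult1c1 span at most 2.38-fold on the left, and Sult1d1 stays between 19.3 and 38.6 on the right.

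A few glutathione S-transferases and sulfotransferases differed less between the groups. Gstm4 had 20.3, 17.8 and 22.9 CPM in Olfr1507, 17.3, 16.1 and 13.4 in Olfr73 and 63.9, 48.2 and 31.8 in Olfr160 libraries, and Gstm5 had 13.1, 11.6 and 15 CPM in Olfr1507, 16.5, 12.7 and 7.60 in Olfr73 and 41.2, 50.6 and 28.5 in Olfr160 libraries. Both were lower in Olfr1507 than in Olfr160 neurons, at -1.24 ± 0.24 and -1.60 ± 0.30 on the log2 scale. Gstm1, of the same cluster, stood at -5.76 in that comparison. Neither Gstm4 nor Gstm5 passed the threshold against Olfr73. Gstz1, which acts in tyrosine breakdown, had 18.7, 21.2 and 21.9 CPM in Olfr1507, 38.7, 27.1 and 26.3 in Olfr73 and 37.2, 30.4 and 29.9 in Olfr160 libraries. It was lower in Olfr1507 than in Olfr160 (-0.66 ± 0.18, adjusted p = 0.0147) and than in Olfr73 neurons (-0.57 ± 0.18, adjusted p = 0.0360). The first call was lost without Olfr1507 replicate 1 or Olfr160 replicate 1 (adjusted p = 0.0585 and 0.0542) and the second without any of 5 libraries (0.0562 to 0.123).

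Sult4a1, a sulfotransferase relative of the brain, had 95.6, 83.3 and 85.9 CPM in Olfr1507, 80.4, 94.2 and 95.6 in Olfr73 and 53.8, 69.7 and 87.3 in Olfr160 libraries, and was not called in the 3 comparisons under TMM. Its log2 fold change for Olfr1507 over Olfr160 was 0.33 ± 0.17 (adjusted p = 0.132) and turned to -1.16 under neuron-marker scaling (adjusted p = 9.28e-05). For Olfr1507 over Olfr73 it was -0.03 (adjusted p = 0.909), and -0.93 under that scaling (adjusted p = 0.000724). Without Olfr160 replicate 3 it was called higher in Olfr1507 and in Olfr73 than in Olfr160 (adjusted p = 0.0220 and 0.0387). Gsto2, a dehydroascorbate reductase, was at 1.5 to 4.16 CPM and Cyp2u1, a fatty acid hydroxylase, at 0.793 to 2.43 CPM over all 9 libraries, and neither was called in any comparison.

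Genes of the same cluster differed widely in 4 clusters, and the genes compared were not always adjacent. The Cyp2 cluster on chromosome 7 holds 16 members over 1356 kb (mm10, GENCODE M21 genes), 7 of them tested. Cyp2s1 (chr7:25802475-25816913, minus strand) lies at its first place and was higher in Olfr1507 than in Olfr160 neurons in the standard scaling, while Cyp2b10, Cyp2g1 (chr7:26808892-26821205), Cyp2a5 and Cyp2f2 (chr7:27119909-27133660), all on the plus strand, had log2 fold changes of -5.41 to -6.10. The other 2 tested genes were low, with Cyp2a4, a near copy of Cyp2a5, at 1.09 CPM or less and not called, and Cyp2b19 at 0 counts in all Olfr1507 libraries and at 1.5 CPM or less elsewhere. The Cyp2s1 to Cyp2f2 ratio was 0.812 to 2.52 in Olfr1507, 0.0302 to 0.0430 in Olfr73 and 0.0119 to 0.0256 in Olfr160 libraries. In the Cyp2j cluster on chromosome 4, Cyp2j12 (chr4:96099318-96141152) and Cyp2j6 (chr4:96516138-96553661) are both on the minus strand. The Cyp2j12 to Cyp2j6 ratio was 17.8 to 42.0 in Olfr1507, 0.983 to 1.66 in Olfr73 and 0.0722 to 0.123 in Olfr160 libraries.

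On chromosome 5, Sult1d1 (chr5:87554645-87569027) lies between Sult1b1 and Sult1e1 (chr5:87575969-87591594), all on the minus strand. The Sult1d1 to Sult1e1 ratio was 2732 to 6630 in Olfr1507, 182 to 400 in Olfr73 and 19.1 to 90.1 in Olfr160 libraries. In the Gstm cluster on chromosome 3, which spans 149 kb, Gstm5 and Gstm4 are the outermost of 7 genes. The 4 tested genes between them had log2 fold changes of -5.52 to -6.55 for Olfr1507 over Olfr160. Both ends of this range rest on few Olfr1507 counts. Gstm6 (-6.55 ± 1.65, SE) averaged 0.0110 CPM in Olfr1507 and 1.84 in Olfr160 neurons, and Gstm7 (-5.52 ± 0.87) 0.205 and 9.75 CPM. The Gstm4 to Gstm1 ratio was 0.334 to 0.723 in Olfr1507, 0.0293 to 0.0480 in Olfr73 and 0.0204 to 0.0218 in Olfr160 libraries. For each of these 4 ratios the 3 groups did not overlap, which is a description, since the pairs were chosen with their levels known. Ratios of counts within a library do not depend on the scaling between libraries.

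**Figure D5:**
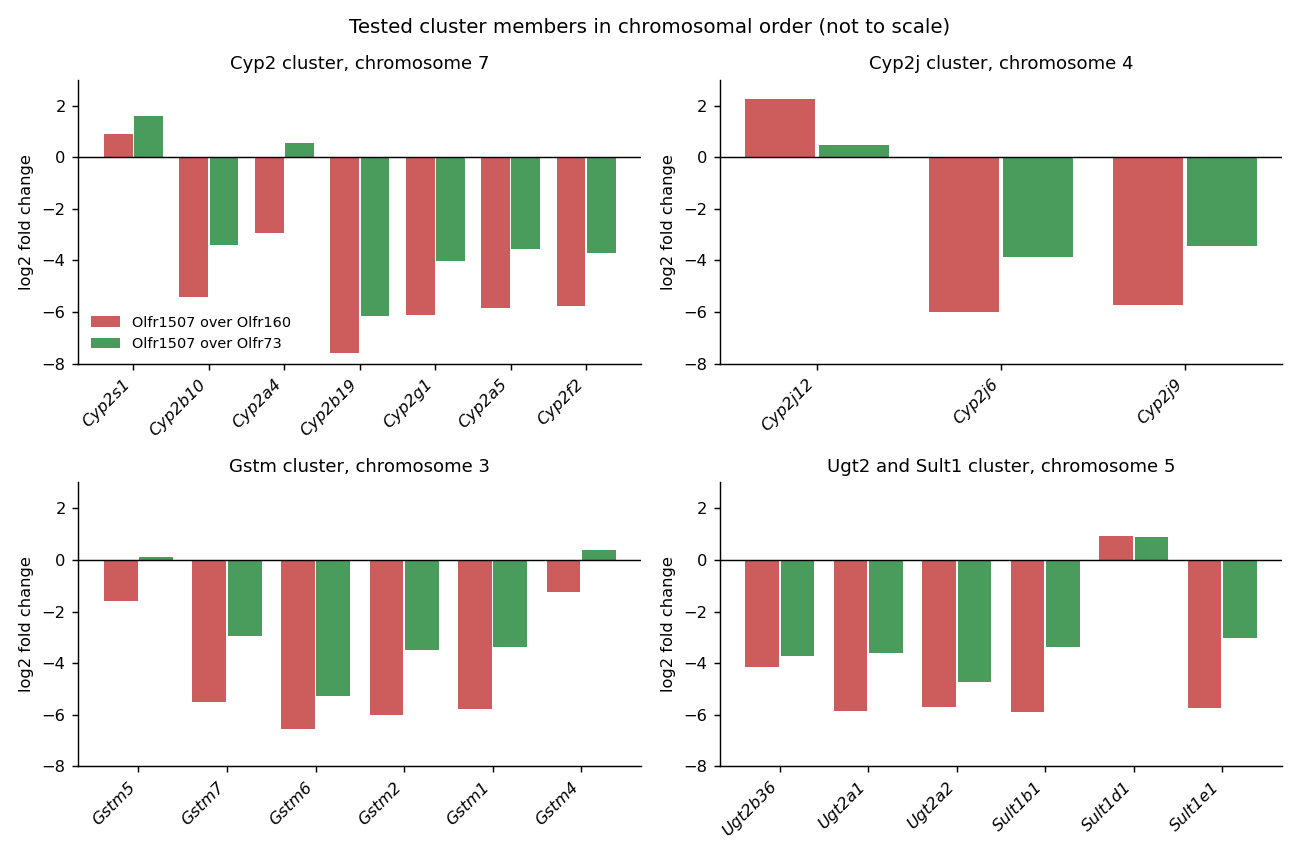
Log2 fold changes of the tested members of 4 gene clusters in chromosomal order (evenly spaced, not to scale), for Olfr1507 over Olfr160 and Olfr1507 over Olfr73. Cyp2s1 at 0.88, Cyp2j12 at 2.27 and Sult1d1 at 0.92 stand above 0 against Olfr160 (Cyp2s1 and Sult1d1 turn below 0 when libraries are scaled to neuron markers), while Cyp2f2, Cyp2j6 and Sult1e1 stand at -5.75, -5.99 and -5.74. The bar of Cyp2b19, at 0 counts in Olfr1507, depends on the prior count of the fit. That of Gstm6 rests on a mean of 0.0110 CPM in Olfr1507.

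Outside the families, 54 of 63 listed genes of the same pathway were tested. Of these, 27 were lower and 9 higher in Olfr1507 than in Olfr160 neurons, 20 lower and 6 higher in Olfr1507 than in Olfr73, and 19 lower and 5 higher in Olfr73 than in Olfr160, with medians of -1.02, -0.51 and -0.54. Over all genes tested, 27.7% were lower and 20.7% higher in the first comparison, 19.9% and 14.5% in the second and 10.5% and 7.45% in the third, so that the numbers of higher genes in the list were near those shares. Of the 17 tested reductases and dehydrogenases, 13 were lower in Olfr1507 than in Olfr160 neurons. The list of these enzymes shares Cbr2 and Aldh1a7 with the sustentacular markers above, so the lists are not independent. Aox2, an aldehyde oxidase, had 12.8, 27.0 and 12.1 CPM in Olfr1507, 270.0, 296 and 181 in Olfr73 and 995, 1038 and 758 in Olfr160 libraries. Mgst1, the microsomal glutathione S-transferase, and Abcc3, an efflux pump for conjugates, followed at -5.69 ± 0.52 and -5.41 ± 0.39 for Olfr1507 over Olfr160.

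Of the 6 listed electron donors and hydrolases, 5 were lower and 1 higher in Olfr1507 than in Olfr160 neurons, and of the 11 cofactor genes 6 were lower and 1 higher. Por, which passes electrons to P450 enzymes, had 577, 536 and 473 CPM in Olfr1507, 485, 492 and 359 in Olfr73 and 1253, 1118 and 874 in Olfr160 libraries (log2 fold change -1.03 ± 0.17 for Olfr1507 over Olfr160, adjusted p = 0.00119). Ugdh, which makes the glucuronic acid donor, had 196, 194 and 224 CPM in Olfr1507, 237, 199 and 122 in Olfr73 and 867, 734 and 550 in Olfr160 libraries. Neither passed the threshold between Olfr1507 and Olfr73, and both were higher in Olfr160 neurons. Ephx1, the microsomal epoxide hydrolase, averaged 235 ± 20.0 CPM in Olfr1507, 128 ± 36.8 in Olfr73 and 546 ± 165 in Olfr160 neurons (SD, n = 3 each).

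Papss1 and Papss2 each make the sulfate donor that sulfotransferases use. Papss2 had 2.59, 2.31 and 2.85 CPM in Olfr1507, 333, 356 and 375 in Olfr73 and 228, 260 and 194 in Olfr160 libraries, a log2 fold change of -7.11 ± 0.17 for Olfr1507 over Olfr73 (adjusted p = 7.62e-08) and of -6.47 ± 0.16 for Olfr1507 over Olfr160 (adjusted p = 1.48e-07). Papss1 had 157, 150 and 145 CPM in Olfr1507, 95.3, 80.3 and 84.6 in Olfr73 and 97.6, 105 and 93.7 in Olfr160 libraries, and its differences of 0.80 ± 0.10 for Olfr1507 over Olfr73 and 0.61 ± 0.10 for Olfr1507 over Olfr160 turned to -0.11 and -0.94 under neuron-marker scaling. Nqo1 is a quinone reductase known in the mouse from neurons of the dorsal olfactory epithelium. It had 1.73, 7.76 and 3.07 CPM in Olfr1507, 915, 571 and 946 in Olfr73 and 449, 672 and 1071 in Olfr160 libraries. Olfr1507 neurons thus differed from both other groups in this dorsal gene as well as in receptor. The part of position in the epithelium in the enzyme differences was not tested. In Olfr73 over Olfr160, Papss2 was higher at 0.64 ± 0.12 (adjusted p = 0.0101), which turned to -0.020 under neuron-marker scaling, and Nqo1 was not called (0.15 ± 0.45, adjusted p = 0.846). Among the Olfr160 libraries, the one with the most Nqo1, replicate 3, had the lowest sustentacular sum, 8977 CPM. The one with the least, replicate 1, had the highest, 15974 CPM. The neuron marker sum rose over replicates 1, 2 and 3 as Nqo1 did (29173, 39137 and 51070 CPM), and so did Olfr160 and Sult1d1. This order of 3 libraries was not tested.

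Of the regulators, 4 of the 6 tested (Nfe2l2, Rxra, Ahr and Arnt) were higher in Olfr1507 than in Olfr160 neurons under TMM, where 20.7% of all genes were higher. Nfe2l2, the activator of the antioxidant response, had 908, 944 and 847 CPM in Olfr1507, 478, 575 and 547 in Olfr73 and 345, 436 and 504 in Olfr160 libraries, with 1.07 ± 0.15 for Olfr1507 over Olfr160 and 0.75 ± 0.15 over Olfr73, which turned to -0.43 and -0.15 under neuron-marker scaling. Adh5, the formaldehyde-clearing alcohol dehydrogenase, had 539, 514 and 521 CPM in Olfr1507, 243, 258 and 239 in Olfr73 and 208, 245 and 226 in Olfr160 libraries, with 1.21 ± 0.10 and 1.09 ± 0.09 over Olfr160 and Olfr73, which under that scaling turned to -0.33 and fell short of the threshold at 0.18 (adjusted p = 0.343). That scaling moved the median of all genes to -1.69, -1.06 and -0.65 in Olfr1507 over Olfr160, Olfr1507 over Olfr73 and Olfr73 over Olfr160, and the share of higher among all called genes to 0.878%, 3.55% and 2.54%. With TMM these shares were 42.8%, 42.2% and 41.6%, with library size alone 17.7%, 18.2% and 30.6% (medians -0.56, -0.47 and -0.12). In Olfr1507 over Olfr160, the values of Sult1d1, Cyp2s1, Papss1, Nfe2l2 and Adh5 lay above the median of all genes under TMM. Neuron-marker scaling shifts all genes nearly alike, so their place above the median there follows from that and is no separate result.

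A list of 23 members known in the literature as enzymes of sustentacular cells or glands had 22 tested. Of these, 19 were lower and 1 higher in Olfr1507 than in Olfr160 neurons, 19 lower and 1 higher in Olfr1507 than in Olfr73, and 17 lower and 1 higher in Olfr73 than in Olfr160, with medians of -5.65, -3.42 and -2.21. Over all genes tested, 27.7%, 19.9% and 10.5% were lower and 20.7%, 14.5% and 7.45% higher in these comparisons. The listed genes are part of the 59 tested members counted above, so these numbers are not a separate observation. The exceptions were Cyp2s1, higher in Olfr1507 neurons under TMM as given above, and Cyp2c23, higher in Olfr73 neurons.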

How the data were processed

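The deposited tables held RSEM expected counts and TPM per gene for 9 libraries. Per the submitters' processing notes, STAR 2.6.1, RSEM 1.3.1 and DESeq2 were used with mm10; settings are not given in the sources used here. Per the labels, polyA RNA of sorted cells was made into low-input libraries. In the expected count table as deposited by the authors, 4.06 to 5.54% of values per library were not whole (tolerance 0.005), since RSEM divides reads among like genes. TPM values of the authors were used for levels between genes and in alternative tests.

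Counts were rounded, filtered with filterByExpr, scaled by TMM and fitted in edgeR 4.0.16 (R 4.3.3) with 1 mean per group over all 9 libraries. CPM are relative to TMM-scaled library sizes. The test was tried on simulated counts. Alternatives used limma 3.58.1 and DESeq2 1.42.0, other scalings and filters, a replicate block and leaving out each library. Replicate numbers were not shown to pair libraries. Genes were placed on GENCODE M21 by transcript (167 of 169 members); promoters are RefSeq's.

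The members and gene lists were chosen with earlier results of these data known. Named genes were, per comparison, the 8 largest changes each way at 5 CPM or more without overlap, the 3 highest TPM per group, the top member of each family, and those highest in Olfr73 or Olfr1507 neurons (24 genes); 17 more were named after their values were seen. The floor is 3 counts, for counting error only. Protein sequences were not used here.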

Additional observations from a re-analysis of the deposited data

How the results depend on the processing

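Of 102 gene-by-comparison values of the 41 genes chosen for naming, 80 passed the threshold. Over all alternatives, 2093 of 2231 recomputed values kept their side of it with no change of sign in a called value. A change of sign in a value called neither before nor after was not counted. The number of members lower in Olfr1507 than in Olfr160 neurons was 49, and 34 to 55 over the alternatives other than leaving out a library, and that lower in Olfr1507 than in Olfr73 was 37, and 27 to 43. Members higher in Olfr1507 than in Olfr160 numbered 3, and 1 with library size alone, with neuron-marker scaling, with Olfr160 replicate 3 as its group's only library and with a minimum log2 fold change of 1. Members higher in Olfr1507 than in Olfr73 numbered 2, and 1 with library size alone, neuron-marker scaling, limma on log2(TPM + 1), an adjusted p of 0.01 and a minimum log2 fold change of 1. Between Olfr73 and Olfr160, 2 higher and 32 lower became 0 and 0 with Olfr160 replicate 3 alone (2 and 26 at an unadjusted p under 0.05; DESeq2 called 2 and 38 on all libraries), where the lone library is assumed to vary like the other groups, and the lower became 18 at an adjusted p of 0.01. Leaving out 1 library at a time gave 2 to 4 higher and 44 to 54 lower in Olfr1507 over Olfr160, 1 to 3 and 28 to 39 in Olfr1507 over Olfr73, and 2 to 3 and 24 to 31 in Olfr73 over Olfr160. Of the 80 named calls, 10 were lost without some library.

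Neuron-marker scaling reversed 12 named values that were called before or after it. By construction it lowers Olfr1507 and Olfr73 levels against Olfr160. In Olfr1507 over Olfr160 these were Sult1d1 (-0.54), Cyp2s1 (-0.66), Sult4a1 (-1.16), Papss1 (-0.94), Nfe2l2 (-0.43) and Adh5 (-0.33). In Olfr1507 over Olfr73 they were Sult1d1 (-0.033), Papss1 (-0.11), Nfe2l2 (-0.15) and Ephx1 (-0.040), and in Olfr73 over Olfr160 Papss2 (-0.020) and Adh5 (-0.51).

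Same-numbered libraries deviated together weakly at most (correlations of -0.21 to 0.14). These were 0.013, 0.025 and 0.11 in Olfr1507 over Olfr73 and 0.052, 0.073 and 0.14 in Olfr73 over Olfr160, all above 0. In Olfr1507 over Olfr160 they were -0.21, 0.023 and -0.028. Libraries of unlike number had -0.13 to 0.15, and in each comparison some library correlated best with another number. With the replicate number as a block, members called higher and lower were 3 and 48, 2 and 35, and 2 and 32 in the 3 comparisons, and Cyp2s1 in Olfr73 over Olfr160 (adjusted p = 0.0740) and Gstz1 in Olfr1507 over Olfr73 (0.0559) lost their calls.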
